A study of Rattus norvegicus with 6 samples.

Results

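The rat miRNAs named miR-3541 to miR-3599 carry a run of consecutive miRBase numbers, which were given in order of registration and say nothing of function. All rows of the deposited table whose name falls in that run were taken, which gave 57 of its 842 rows, from 43 distinct numbers. The tissue was the orbitofrontal cortex, a frontal area that serves the weighing of choices, and all rats were adult males of the outbred strain Sprague Dawley. The 3 animals of the injured group underwent surgery on days 1, 4 and 7 with a controlled cortical impact each time, a blow by a piston that moved at 5 m/s and reached 2 mm deep. The 3 animals of the sham group had surgery without impact on the same days, and tissue from both groups was collected on day 42. The labels give 3 biological replicates a group and mention no genetic modification, batch or pairing.

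A miRNA is cut from the stem of a hairpin transcript, and 1 strand of the resulting duplex is loaded into an Argonaute protein. Bases 2 to 8 of the loaded strand, the seed, select its targets. If the opposite DNA strand at the same place were also transcribed and folded, its product would be the reverse complement of the known miRNA and would carry another seed. A short read can be assigned to only 1 of such a pair if the strand of the alignment is used. The sources used here do not say whether the deposited counting used strand, and without it reads of a miRNA and of its reverse complement cannot be told apart.

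Of the 57 members, 28 had a mature sequence that was the reverse complement, over 18 to 22 unbroken bases, of another rat miRNA. RefSeq (build GRCr8) held 53 of the 57 sequences, and in the remaining 25 the longest such run was 11 bases, so the 2 sets were well apart. All 28 lay on the strand opposite to that miRNA at the same place in GRCr8. Where RefSeq places a miRNA at more than 1 position, any copy at that place sufficed. The following pairs are shown because their counts carry the main comparison, with seeds in capitals. Each is written 5′ to 3′, so over the shared run the reverse of 1 line pairs base by base with the other. Some lines extend past that run.
miR-3596a: aACUAUACaaccuacuaccuca
let-7a-5p: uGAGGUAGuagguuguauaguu
miR-3596d: cUAUACAAucuacuaccuca
let-7f-5p: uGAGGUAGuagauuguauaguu
miR-3588: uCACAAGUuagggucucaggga
miR-125b-5p: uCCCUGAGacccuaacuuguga
miR-3543: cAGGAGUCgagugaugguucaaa
miR-434-3p: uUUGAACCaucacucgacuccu
miR-3557-5p: gCCUUCUGacuccaaguccagu
miR-378a-3p: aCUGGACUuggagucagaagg
miR-3587: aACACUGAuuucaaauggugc
miR-29b-3p: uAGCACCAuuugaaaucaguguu
miR-3556b: aCCGAUUUcaaauggugcua
miR-29c-3p: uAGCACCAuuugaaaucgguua
miR-3556a: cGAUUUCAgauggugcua
miR-29a-3p: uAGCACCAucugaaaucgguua
miR-3544: aACUCCUGcaugacgccguuccc
miR-337-5p: cGGCGUCAugcaggaguugau
miR-3595: gUGGAUUUuccucuacgau
miR-376a-3p: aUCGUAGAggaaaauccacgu

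As examples of position, miR-3596a lay at chr8:50805219-50805240 on the minus strand, opposite let-7a-5p on the plus strand. The mature miR-3543 lay at chr6:134330451-134330473 on the minus strand, opposite miR-434-3p and within the span of Rtl1, an imprinted gene of the Dlk1-Dio3 region. The 2 arms of miR-3557 lay within the span of Ppargc1b on chromosome 18, at chr18:57128924-57128945 for the 5p arm on the plus strand, opposite miR-378a-3p. Among the members with a reverse complement, 5 of 28 began with U, the base that Argonaute proteins favour at the first position. Their reverse-complementary miRNAs began with U in 11 of 28. Of the 25 members without such a counterpart 11 began with U, against 208 of the 561 other rows found in RefSeq, which include those reverse-complementary miRNAs. A reverse complement has its first base set largely by the 3′ end of its counterpart, so these shares do not measure loading. Only 2 members shared a seed with another rat miRNA of that table. miR-3596d shared UAUACAA with let-7 3p strands such as let-7b-3p, and miR-3573-5p shared GAGGGGC with miR-423-5p.

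Libraries held 12538288 to 23680840 counted reads, of which the members took 3.26% to 3.81%. Near-equal rows were not confined to members. Keeping 1 row from each group of rows within 5% in every library would leave out 32 rows of the table. Those rows held 22.2% to 24.9% of the reads, so library totals and CPM values include both rows of such pairs. The counts carried no molecular identifiers, so limits for single libraries cover counting error only, and a count of 0 allows up to 0.127 to 0.239 CPM, that is 3 counts scaled to a library of 1000000 reads. The cortical neuron markers miR-9a-5p and miR-128-3p were among the abundant rows, at 187457 to 210892 CPM and 64617 to 106323 CPM of library totals. The neuron marker miR-124-3p was lower, at 3704 to 6841 CPM. The vessel markers miR-126a-3p and miR-143-3p had 4900 to 6105 CPM and 21524 to 36719 CPM. Counts of miR-9a-5p lay within 0.241% of those of miR-9b-3p, its reverse complement over 18 bases. The miR-200 family of epithelia ranged from 7.40 to 3597 CPM and was highest in sham replicate 1 and injured replicate 2.

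Counts of 23 members were matched by exactly 1 other row, with a difference of at most 5% of the larger count in every library and at least 60 reads in total for both. In 9 of the 23 the counts were identical to those of the partner in all 6 libraries, and in 21 they lay within 1%. For the 22 with a RefSeq sequence, the partner was in each case the reverse-complementary miRNA, over a run of 20 to 22 bases. The member and its partner shared at most 6 bases in a row on the same strand. The partner never was another member, and the highest number among the partners was miR-539. Near-equal partners were found for 69.7% of the members with at least 60 reads. The same share was 18.2% among other names numbered 3000 and above and 8.15% among names under 3000 with let-7, and 23 of the 37 partnered rows in the latter list were the partners of members. Of the 9 pairs in the table that held no member, 7 were reverse complements and 1, miR-129-1-3p with miR-129-2-3p, shared its sequence on the same strand.

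**Figure D1:**
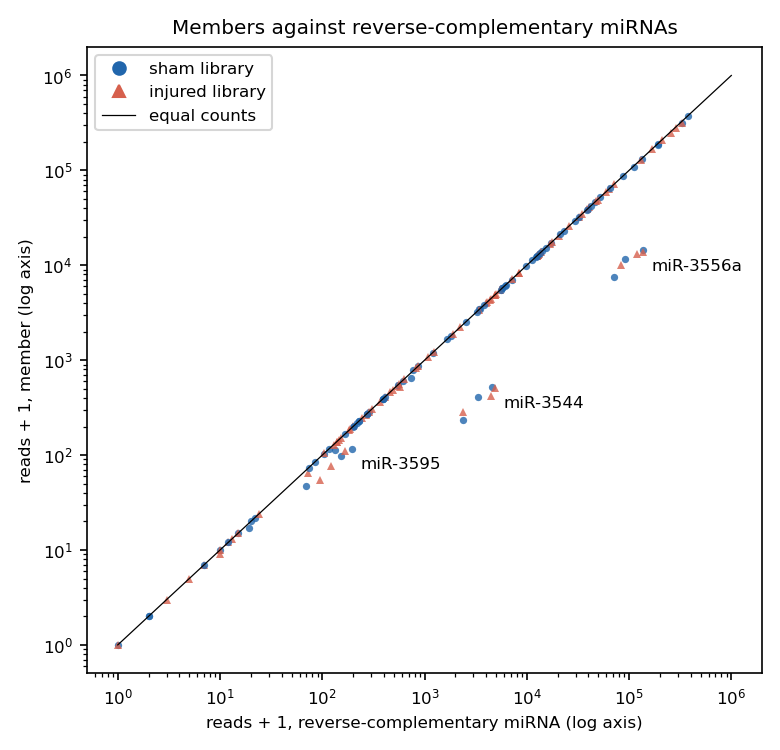
Reads plus 1 of each member (vertical log axis) against reads plus 1 of its reverse-complementary miRNA (horizontal log axis), for 28 members in 6 libraries, with blue circles for sham and red triangles for injured libraries. Most points lie on the line of equal counts, whereas those of miR-3556a and miR-3544 lie at 9.20% to 12.6% of their counterparts and those of miR-3595 at 57.4% to 66.7%.

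The let-7 group, whose miRNAs promote differentiation and are abundant in the adult brain, held the largest share of these reads. miR-3596a to miR-3596d together took 55.9% of all reads assigned to members. miR-3596d had 185119, 319011 and 369984 reads in sham replicates 1, 2 and 3 and 319501, 248849 and 279633 in injured replicates 1, 2 and 3. let-7f-5p had 190650, 327165 and 379150 against 328763, 255315 and 287572, so miR-3596d stood at 97.1% to 97.6% of it in every library, the widest gap among the pairs that hold a member. miR-3596a had exactly the 39589, 51972 and 87371 reads of let-7a-5p in the sham libraries and its 63894, 40913 and 72029 in the injured ones. miR-3596b lay within 0.0114% of let-7d-5p and miR-3596c within 0.760% of let-7e-5p.

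Members opposite the miR-29 family did not all behave alike. miR-29 miRNAs are known for repressing collagens and for rising as neurons mature. miR-3587 stayed within 0.244% of miR-29b-3p and miR-3556b within 0.660% of miR-29c-3p. miR-3556a had 7484, 11608 and 14403 reads in the sham libraries and 13771, 10114 and 13194 in the injured ones. Its counterpart miR-29a-3p had 70770, 92246 and 136474 in the sham libraries and 135615, 83422 and 119313 in the injured ones. The member therefore held 11.2% ± 1.2 of the reads of miR-29a-3p in the sham libraries and 11.1% ± 1.0 in the injured ones (SD, n = 3 each), with overlapping groups.

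Members on rat chromosome 6 formed a further group opposite miRNAs of the imprinted Dlk1-Dio3 region, a large miRNA cluster expressed in neurons from the maternal chromosome. In it, miR-3543 differed from miR-434-3p by 1 read in 1 library, 58922 against 58921 in injured replicate 3. miR-3576 equalled miR-539-5p in every library, miR-3578 lay within 0.127% of miR-369-5p and miR-3579 within 0.0204% of miR-380-5p. miR-3592 had 3436, 12670 and 13365 reads in the sham libraries and 8350, 4088 and 4413 in the injured ones, within 0.698% of miR-382-3p, and the groups overlapped. The 2 members of the region that failed the 5% limit were miR-3544 and miR-3595. miR-3544 held 11.1% ± 1.2 of the reads of miR-337-5p in the sham libraries and 10.5% ± 1.4 in the injured ones. miR-3595 held 63.4% ± 3.3 of those of miR-376a-3p in the sham libraries and 61.8% ± 4.5 in the injured ones (SD, n = 3 each).

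Further pairs joined members to miRNAs of metabolism, oxygen response and muscle, among others. miR-3588 had 109767, 133351 and 190161 reads in the sham libraries and 166161, 129749 and 210455 in the injured ones, 99.2% to 99.3% of miR-125b-5p, a brain-rich miRNA related to lin-4 of worms. miR-3557-5p lay within 0.00579% of miR-378a-3p and miR-3557-3p within 1.11% of miR-378a-5p, the 2 strands of a hairpin linked to energy metabolism. miR-3570 lay within 0.143% of miR-181a-1-3p. miR-3574 equalled miR-210-3p, which is induced by low oxygen, and miR-3571 equalled miR-1-3p of striated muscle, at 102 to 270 reads a library. miR-3590-5p and miR-3590-3p equalled miR-130a-3p and miR-130a-5p, so the arms were exchanged. miR-3560 equalled miR-501-3p, miR-3589 equalled miR-505-3p, and miR-3586-3p, whose sequence was not matched in RefSeq, equalled miR-151-5p. Across the 23 pairs the member had fewer reads than its partner in 11, more in 3 and the same total in 9.

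Members opposite epithelial and sensory miRNAs followed the libraries rich in the miR-200 family. miR-3553 had 5542, 273 and 1802 reads in the sham libraries and 461, 4355 and 1068 in the injured ones, within 0.0935% of miR-183-5p of sensory cells. miR-3548 had 652, 16 and 113 reads in the sham libraries and 6, 526 and 63 in the injured ones, 85.6% to 100% of miR-200a-5p. Both were highest in sham replicate 1 and injured replicate 2, the libraries with 3597 and 1579 CPM of the miR-200 family against 7.40 to 224.0 in the others. In bulk tissue, fewer cells of a type and less RNA per cell cannot be told apart. A refit without sham replicate 1 and injured replicate 2 gave miR-3548 a log2 fold change of -0.73, against -0.63 with all libraries. Beyond that refit, the part of these libraries in the differences between groups was not tested.

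Ratios well below 100% were seen only where the counterpart extended past the shared run at its 3′ end, but not in every such member. In 15 members the shared run reached the 3′ end of the counterpart, and their reads were 98.9% to 100.1% of its reads in every library. Among 5 with 1 further base there it was 85.6% to 100%, with the low end from miR-3548. Among 6 with 2 further bases it was 57.4% to 100%, with the low end from miR-3595, at 57.4% to 66.7%. The 2 with 3 or 4 further bases, miR-3544 and miR-3556a, had 9.20% to 12.6%. They also had the shortest shared runs, of 18 bases, so run length and further bases cannot be told apart for them. At the 5′ end of the counterpart, 2 bases were unmatched for miR-3587 and miR-3596b, whose counts lay within 0.244% and 0.0114% of their counterparts. These are descriptions over 28 members of 1 table, and miR-3544 also has 5 bases of its own beyond the shared run at its 3′ end.

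**Figure D2:**
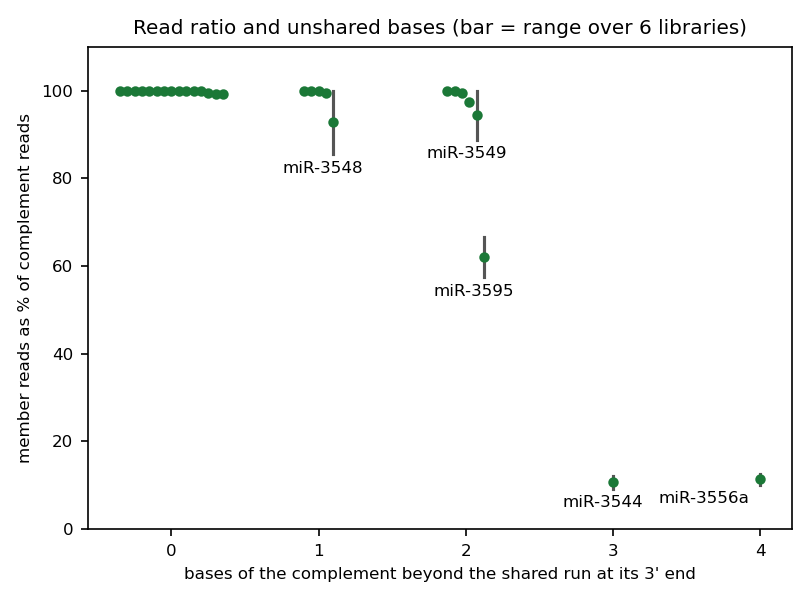
Member reads as a percentage of the reads of the reverse-complementary miRNA (vertical axis) by the number of bases that the latter extends past the shared run at its 3′ end (horizontal axis), for 28 members. Each vertical bar spans the lowest to the highest of 6 libraries (miR-3546: the 4 libraries where its counterpart had reads) and each point marks the middle of that range. Ratios with 0 further bases lie between 98.9% and 100.1%, and those with 3 or 4 between 9.20% and 12.6%.

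Among the 53 members with a RefSeq sequence, only 5 had at least 60 reads and no reverse-complementary miRNA. They were both arms of miR-3559, both arms of miR-3594 and miR-3542, shown here because their counts can be read without a counterpart, with seeds in capitals.
miR-3559-5p: uGACAGACuuaguacuacauga
miR-3559-3p: aUGUAGUAcugagucugucgug
miR-3594-5p: cCCAGGGCagagcagugugaa
miR-3594-3p: cACACCGCcucugcccgcuagu
miR-3542: aAGGCUCUucuuuccuugcag

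In GRCr8 miR-3559 lay within the span of Zdhhc15, a palmitoyltransferase gene on chromosome X, with the 5p arm at chrX:73660193-73660214 on the minus strand. miR-3594 lay within the span of Cep131, a centrosome and cilium gene on chromosome 10, at chr10:105845867-105845887 on the minus strand for the 5p arm. miR-3542 lay within the span of Ddx41, an RNA helicase gene, at chr17:9112796-9112816 on the plus strand. The gene strand is not held in the table used, so a span says nothing of orientation. All 25 members in RefSeq without a counterpart together made up 89.7 to 119.5 CPM of a library, with a median of 12 reads over all 6 libraries for each. The 28 with a counterpart had a median of 12459 reads each.

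miR-3559 was the most abundant of the members in RefSeq without a counterpart. Its 5p arm had 1016, 2128 and 2136 reads in the sham libraries and 2172, 1792 and 1748 in the injured ones, and its 3p arm 68, 117 and 113 against 111, 124 and 105. The groups overlapped for both arms. On the TMM scale, a between-library scaling used for all levels from here on, the 5p arm stood at 92.5 ± 22.6 CPM in the sham libraries and 96.6 ± 18.9 CPM in the injured ones (SD, n = 3 each). The log2 ratio of 5p to 3p reads was 4.10 ± 0.18 in the sham libraries and 4.06 ± 0.22 in the injured ones, a difference of -0.04 ± 0.25 (SE).

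The 3p arm of miR-3594 had 20, 19 and 42 reads in the sham libraries and 30, 12 and 28 in the injured ones, and the 5p arm 8, 14 and 34 against 16, 16 and 26. The log2 ratio of 5p to 3p was -0.67 ± 0.53 in the sham libraries and -0.20 ± 0.65 in the injured ones (SD, n = 3 each), a difference of 0.47 ± 0.39 (SE, adjusted p = 0.845 from limma). Among the 4 member hairpins with enough reads in both arms, 0 passed an adjusted p of 0.05, as did 0 (0%) of the 153 hairpins tested with limma, of which 5 had an unadjusted p under 0.05. The other 2, miR-3557 and miR-3590, had arms with counts near-equal to those of the arms of miR-378a and miR-130a.

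**Figure D3:**
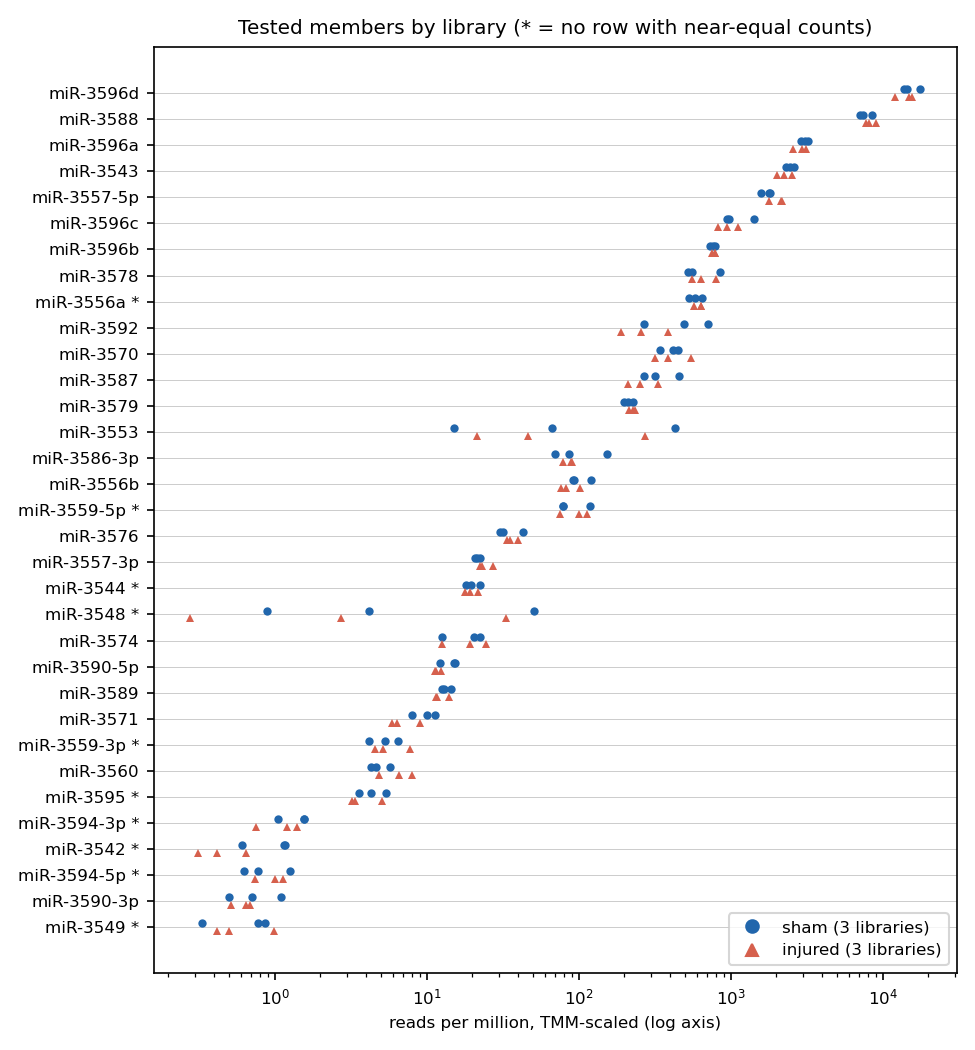
Levels of the 33 tested members in CPM after TMM scaling (horizontal log axis), with blue circles for the 3 sham and red triangles for the 3 injured libraries and an asterisk where no row had near-equal counts. Levels run from under 1 CPM for miR-3549 to 17770 CPM for miR-3596d, and the libraries of miR-3553 and miR-3548 spread most widely.

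In the comparison of injured with sham animals no member passed the test. With the quasi-likelihood test of edgeR, 33 members entered the fit, and 0 of them passed an adjusted p of 0.05, as did 0 (0%) of all 534 rows tested, with a smallest adjusted p of 0.813. The count was also 0 with DESeq2, with limma-voom and with limma run on log2(TPM + 1). Over all rows, the smallest adjusted p was 0.052 with DESeq2, just over the limit. It was 0.874 with limma-voom and 0.927 with limma on log2(TPM + 1). At an unadjusted p under 0.05 there was 1 member of the 10 without a count partner, against 12 (2.25%) of the 534 rows. Of these 10 members, 4 had positive and 6 negative log2 fold changes, with a median of -0.02 beside -0.03 for all rows tested. None of the 10 had groups that did not overlap, against 42 (7.87%) of the 534 rows. A typical row had a 95% interval reaching 0.56 log2 units to either side, and the 10 members had a median SE of 0.31.

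miR-3542 was the member with an unadjusted p under 0.05, at 0.0416 from edgeR, and it was not called. It had 15, 11 and 31 reads in the sham libraries and 9, 5 and 15 in the injured ones. Scaled levels were 1.17, 0.613 and 1.15 CPM in the sham libraries and 0.419, 0.315 and 0.650 CPM in the injured ones. Sham replicate 2 lay below injured replicate 3, so the groups overlapped. The log2 fold change was -1.05 ± 0.43 (SE), with a 95% interval from -2.05 to -0.05 and an edgeR adjusted p of 0.878.

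**Figure D4:**
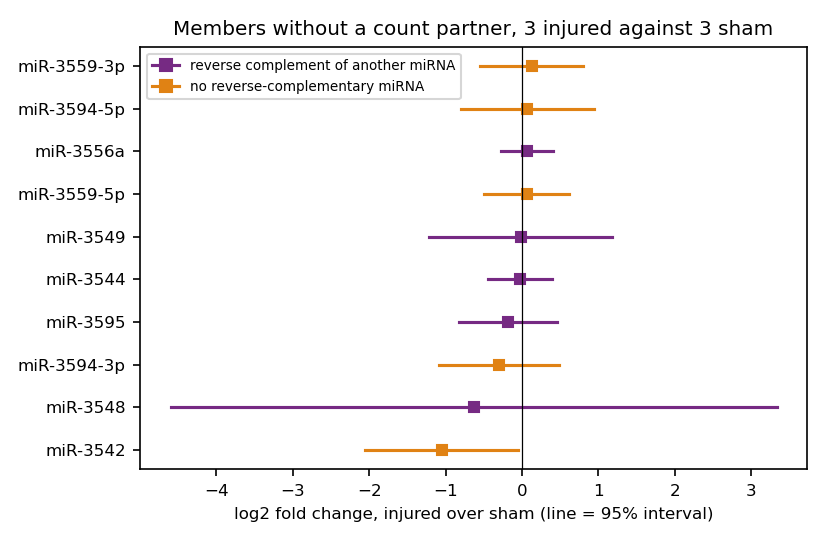
Log2 fold change of injured over sham (horizontal axis) with its 95% interval for the 10 members without a count partner, in purple where the member is the reverse complement of another miRNA and in orange where it is not. The interval of miR-3542 runs from -2.05 to -0.05, the other 9 intervals include 0, and that of miR-3548 is the widest, from -4.60 to 3.33.

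The other 4 members without a counterpart had log2 fold changes close to 0 or with wide intervals. miR-3559-5p had 0.06, with an interval from -0.49 to 0.62, and miR-3559-3p 0.13, from -0.55 to 0.80. miR-3594-3p had -0.30 ± 0.34 (SE) and miR-3594-5p 0.07 ± 0.37.

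The 5 members that lie opposite a miRNA but failed the 5% limit are given beside that counterpart. miR-3556a had a log2 fold change of 0.07 ± 0.15 (SE) beside 0.09 ± 0.13 for miR-29a-3p. miR-3544 had 233, 406 and 524 reads in the sham libraries and 415, 286 and 506 in the injured ones, a log2 fold change of -0.03 ± 0.18 beside 0.08 ± 0.18 for miR-337-5p. miR-3595 had 46, 97 and 116 reads in the sham libraries and 109, 54 and 75 in the injured ones, with -0.18 ± 0.27 beside -0.17 ± 0.25 for miR-376a-3p. miR-3548 had -0.63 ± 1.69 beside -0.67 ± 1.69 for miR-200a-5p. miR-3549 had 11, 6 and 21 reads in the sham libraries and 9, 8 and 23 in the injured ones. It equalled miR-193a-5p, a miRNA opposite it on chromosome 10, in 5 of 6 libraries and missed the limit by 8 reads against 9 in injured replicate 2. Its log2 fold change was -0.02 ± 0.51 (SE) beside 0.02 ± 0.50 for miR-193a-5p.

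Values of the 23 partnered members were near-equal to those of their partners and are not taken as a second measurement. Whether both names drew on the same reads was not tested. Their log2 fold changes ranged from -0.81 for miR-3592 to 0.40 for miR-3560, with a median of -0.10, 10 positive and 13 negative, and 0 had an unadjusted p under 0.05. Only 1 of the 23, miR-3557-3p, had groups that did not overlap, against 42 (7.87%) of the 534 rows. It had 20.9, 21.6 and 22.57 CPM in the sham libraries and 22.61, 23.0 and 27.2 CPM in the injured ones, so the groups nearly touched. Its log2 fold change was 0.16 ± 0.17 (SE).

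The remaining 24 members had 1 to 51 reads over all libraries and did not enter the fit. The highest were miR-3583-3p, with 4, 3 and 8 reads in the sham libraries and 22, 10 and 4 in the injured ones, and miR-3585-3p, with 1, 8 and 7 against 5, 8 and 11. miR-3552, within the span of the serotonin receptor gene Htr2c, had 3, 3 and 7 reads in the sham libraries and 13, 4 and 4 in the injured ones. miR-3547 had 34 reads in total, miR-3577 had 33, miR-3572 had 29, miR-3558-3p 16, miR-3583-5p 15, miR-3585-5p 12 and miR-3569 11. miR-3546 had 8 reads, with the same count in each library as miR-208a-5p, which lies opposite it within the span of the cardiac myosin gene Myh6. The others, with at most 9 reads each, were miR-3541, miR-3550, miR-3558-5p, miR-3562, miR-3566, miR-3568, both arms of miR-3573, miR-3580 and miR-3593, and miR-3584-3p.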

How the data were processed

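Small RNA libraries from 3 sham and 3 injured rats were built, per the labels' protocols, by adapter ligation from total RNA with gel size selection. Per the submitters' processing notes, Bowtie and build rn6 were used. The sources used here do not give the counter, its handling of strand and multiply mapped reads, or the miRBase release. The authors deposited raw read counts per miRNA name and TPM values, which equalled counts per 1000000 reads without a length term.

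The members and lists were chosen with earlier results of these data known. Partners were rows within 5% in every library with at least 60 reads each. Mature sequences (RefSeq, GRCr8) were compared on both strands, and a run of at least 16 bases, set after seeing the data, counted as a reverse complement. Calls came from glmQLFit and glmQLFTest of edgeR 4.0.16 (R 4.3.3) on the deposited counts, after TMM scaling. Rows were kept by filterByExpr at a minimum count of 10 and a minimum total of 15, and p-values were adjusted by Benjamini-Hochberg over the 534 rows kept. SE was the absolute log2 fold change over the square root of F. Arm ratios were fitted with limma 3.58.1 on log2 ratios after adding 0.5 to each count, for hairpins averaging 10 reads or more in both arms. DESeq2 1.42.0 and limma on log2(TPM + 1) were among the alternatives. The procedures were tested on simulated data. All members were named, with fuller statistics for those without a partner that entered the fit.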

Additional observations from a re-analysis of the deposited data

How the results depend on the processing

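The count of members with a partner was 21 with a limit of 1%, 23 with 10%, 31 without a minimum total and 22 with at least 600 reads. It was 23 to 24 with single libraries left out and 22, without miR-3590-3p, when the pair of libraries in which miR-200 miRNAs were highest was left out (sham replicate 1 and injured replicate 2), an alternative chosen after seeing the data. Of the 8 members added without a minimum, miR-3546 was the only one matched to its reverse complement. Raising the run that defines a reverse complement to 20 bases left 24 members, and 12 bases gave 28.

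Calls over all rows stayed at 0 under all alternatives run, except without that pair of libraries, which gave 1. The row called there was none of the 10 tested members without a count partner. Members without a count partner at an unadjusted p under 0.05 numbered 0 with library totals, with upper-quartile factors and without the filter. The number was also 0 with DESeq2, with limma on log2(TPM + 1) and without that pair, and 0 to 2 with single libraries left out. Partnered members and all rows were not counted at that limit in the alternatives. The log2 fold change of miR-3542 ran from -1.35 to -0.84 with single libraries left out, and was -0.46 with limma on log2(TPM + 1) and -0.71 without that pair. Upper-quartile factors raised the median of all rows by 0.15 log2 units. Log2 fold changes near 0 changed sign: miR-3544 to 0.0027 with RLE, 0.13 with upper-quartile factors, 0.0032 with DESeq2 and 0.0025 with 1 row per near-equal group. miR-3549 went to 0.019, 0.16, 0.014 and 0.014 in the same fits and to 0.0069 without the filter, and miR-3594-5p to -0.010 with library totals. Without that pair of libraries miR-3549 had 0.34, miR-3559-3p -0.12, miR-3559-5p -0.14, miR-3594-3p 0.011 and miR-3594-5p -0.11. With single libraries left out, ranges were -0.076 to 0.11 for miR-3544, -3.61 to 2.29 for miR-3548, -0.47 to 0.22 for miR-3549, -0.12 to 0.34 for miR-3559-3p, -0.047 to 0.32 for miR-3559-5p, -0.48 to -0.072 for miR-3594-3p, -0.063 to 0.44 for miR-3594-5p and -0.42 to 0.022 for miR-3595. Arm differences ranged from -0.018 to 0.13 for miR-3557, -0.15 to 0.066 for miR-3559, -0.26 to 0.12 for miR-3590 and 0.17 to 0.81 for miR-3594. The cause of these changes was not tested. At under 100 reads in total, as for miR-3542 and miR-3549, counting error limits any fold change.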
